A study of Mus musculus with 190 samples.

Results

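The immunoglobulin heavy chain variable segments (Ighv) were followed in whole-blood RNA of NC/Nga mice. They are the genes of the deposited table with the type IG_V_gene and a symbol that starts with Ighv. Of the 55414 genes in the table they are 60 segments that passed the filter on low counts and were tested, and 53 others that did not. All lie on the minus strand of chromosome 12, between positions 113542124 and 115964081 of GRCm39, a stretch of 2.42 Mb. A further 70 Ighv entries typed as pseudogenes were left out of every sum below unless they are named.

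Blood came from the tail vein of male wild-type animals of NC/Nga, a strain known for eczema-like skin disease in conventional housing, and the series asks how the transcriptome looks before and after onset and by severity. Cohorts 1 to 9 (the labels' groups) were in conventional housing, with 10 libraries at each sampling. Their first sampling was on day 2, 5, 9, 12, 16, 19, 23, 26 and 30 in that order, and the second was on day 44 for the odd-numbered cohorts and on day 40 for the even-numbered ones. Control libraries, 5 on day 16 and 5 on day 44, came from mice under specific-pathogen-free (SPF) conditions, and each library carries a dermatitis score from 0 to 4. That makes 20 groups and 190 libraries. Neither the age at day 0 nor any agent is given in the labels, and all SPF libraries belong to a single control group, so housing and cohort cannot be told apart. The labels do not say that a number names the same mouse at both samplings, so p-values measure the spread between libraries.

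A B cell builds its heavy chain gene by joining a V segment to a D and a J segment, and it then transcribes that V together with a constant region, first Ighm and Ighd. The V segment encodes most of the antigen-binding domain, including the first and second complementarity-determining loops. Resting B cells each use a different join and carry moderate heavy chain RNA, while antibody-secreting cells carry very large amounts, and a large clone of such cells can lift the share of its V segment. Whole blood is a mixture, and fewer B cells and less heavy chain RNA per B cell cannot be told apart in it.

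Levels are given as CPM, counts scaled to the library's total, after TMM scaling, a library factor from the trimmed mean of log ratios. Total counts ran from 21444129 to 71967298 per library. Each library had between 70 and 2774 counts on Ighv segments (median 829). Pooled over all libraries that is 24.1 CPM before TMM scaling, and 11 libraries had fewer than 200. A single segment therefore often rested on a handful of counts. Globin genes took a median of 3.50% of counts in the first sampling of cohorts 1 to 4 and 7.90% in that of cohorts 6 to 9, so values within each of these cohort sets are given beside the pooled ones. The SPF library of day 16 numbered 3 stood apart, with 67% of its counts on Rn7s1, Rn7s2, mitochondrial and globin genes against 28.4% to 36.8% in the other 4 of its group. The B cell marker Cd79b was present in every library, from 20.2 CPM in the first conventional sampling to 195 CPM in SPF mice.

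The segments used most were Ighv2-9, Ighv9-3 and Ighv1-26. Each has a near relative in the locus, and the coding sequences are shown side by side because they show how little separates the reads of one from those of the other. The lines below give the last 290 bases of the V exon, 5′ to 3′ on the coding (minus) strand, from the GENCODE M21 transcripts (GRCm38) with the same transcript identifiers; capitals mark the bases that differ within each pair.
Ighv2-9: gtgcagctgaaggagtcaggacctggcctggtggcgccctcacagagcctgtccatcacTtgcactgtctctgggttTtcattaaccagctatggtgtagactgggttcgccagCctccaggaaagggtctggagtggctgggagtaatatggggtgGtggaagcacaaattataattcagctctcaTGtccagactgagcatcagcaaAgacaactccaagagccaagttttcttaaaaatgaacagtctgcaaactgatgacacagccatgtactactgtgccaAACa
Ighv2-6-8: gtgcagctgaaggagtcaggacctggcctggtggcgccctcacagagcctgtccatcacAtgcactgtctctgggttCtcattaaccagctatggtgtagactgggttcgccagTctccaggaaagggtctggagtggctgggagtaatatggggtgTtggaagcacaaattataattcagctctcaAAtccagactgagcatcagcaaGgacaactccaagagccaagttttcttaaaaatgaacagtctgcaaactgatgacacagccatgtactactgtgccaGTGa
Ighv9-3: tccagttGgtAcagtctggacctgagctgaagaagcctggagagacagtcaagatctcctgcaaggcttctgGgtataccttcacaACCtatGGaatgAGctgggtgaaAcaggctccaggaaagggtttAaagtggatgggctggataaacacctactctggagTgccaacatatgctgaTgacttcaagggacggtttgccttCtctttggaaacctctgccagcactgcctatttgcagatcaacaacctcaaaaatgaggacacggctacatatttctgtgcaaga
Ighv9-2: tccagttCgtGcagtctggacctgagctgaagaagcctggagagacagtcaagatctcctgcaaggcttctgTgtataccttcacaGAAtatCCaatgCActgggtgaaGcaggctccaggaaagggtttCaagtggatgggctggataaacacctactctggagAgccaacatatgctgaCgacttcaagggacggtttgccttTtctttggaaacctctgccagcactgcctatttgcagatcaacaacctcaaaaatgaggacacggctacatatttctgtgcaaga
Ighv1-26: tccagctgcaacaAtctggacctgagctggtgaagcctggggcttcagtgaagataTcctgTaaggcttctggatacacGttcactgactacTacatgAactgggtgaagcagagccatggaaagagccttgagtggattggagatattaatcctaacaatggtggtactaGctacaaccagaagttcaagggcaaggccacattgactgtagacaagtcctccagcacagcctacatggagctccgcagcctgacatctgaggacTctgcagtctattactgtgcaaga
Ighv1-18: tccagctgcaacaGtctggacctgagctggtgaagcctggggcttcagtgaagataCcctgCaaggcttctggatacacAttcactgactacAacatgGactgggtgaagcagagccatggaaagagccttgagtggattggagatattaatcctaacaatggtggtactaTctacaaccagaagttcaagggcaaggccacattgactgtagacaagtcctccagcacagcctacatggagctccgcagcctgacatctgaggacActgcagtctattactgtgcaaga
Over this stretch Ighv2-9 and Ighv2-6-8 differed at 10 bases, Ighv9-3 and Ighv9-2 at 15, and Ighv1-26 and Ighv1-18 at 8. In the authors' GRCm39 positions on chromosome 12, Ighv2-9 lies at 113842716 to 113843161, Ighv9-3 at 114104312 to 114104742 and Ighv1-26 at 114751992 to 114752425. The reference is of C57BL/6J origin, and an NC/Nga heavy chain locus was not used here. Of all Ighv segments 27 were at least 97% identical to another segment or pseudogene over the V exon, and Ighv1-71 and Ighv1-62-2 were 100% identical. Expected counts split such reads: for Ighv1-26 88.4% of the nonzero values were not whole numbers, for Ighv9-3 42% and for Ighv2-9 0.0%, against 8.75% over all genes. Values of single segments with close relatives, Ighv1-26, Ighv1-71 and Ighv1-62-2 among them, are uncertain to that extent.

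Usage was broad and uneven. The 53 segments that did not pass the filter held 2.89% of Ighv counts. No count was seen in any library for 6 segments, and 59 never reached 0.5 CPM, the limit for calling a segment detected. The 12 segments with the highest median level held 47.1% of all Ighv counts: Ighv2-9, Ighv9-3, Ighv1-26, Ighv1-55, Ighv1-64, Ighv1-7, Ighv14-3, Ighv1-5, Ighv5-17, Ighv2-2, Ighv5-4 and Ighv1-34. Ighv2-9 had a median of 1.26 CPM over all libraries and a lowest of 0.236 CPM, and was the one segment of the 12 with a count in all 190 libraries. Ighv9-3 had a median of 1.24 CPM, Ighv1-26 of 0.979 CPM, Ighv1-55 of 0.921 CPM and Ighv1-64 of 0.853 CPM. The authors' per-length values (TPM) put Ighv9-3 at a median of 3.29 and Ighv2-9 at 2.97, so the order of these neighbours turns with the scale. Ighv2-9 was the most used segment in 66 libraries, Ighv9-3 in 52, Ighv1-26 in 20, Ighv1-64 in 12 and Ighv1-55 in 11, and 16 different segments led in at least 1 library.

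By family, which is the number after Ighv in the symbol, Ighv1 was the largest with 53 segments and 43.6% of all Ighv counts. Ighv2 followed with 9 segments and 11.2%, Ighv9 with 4 segments and 8.35%, Ighv8 with 9 and 7.44%, Ighv5 with 10 and 7.27%, and Ighv14 with 4 and 5.58%. The 4 Ighv9 segments thus held more counts than the 10 of Ighv5. The single Ighv16 segment had no count. The 38 segments nearest the D segments held 38.4% of counts, the 37 in the middle of the locus 32.5% and the 38 farthest away 29.1%, so segments from all along the locus were in use.

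The summed Ighv level was highest in SPF blood and in the first conventional cohorts, and lower in nearly every later group. On day 16 the 5 SPF libraries stood at 41.4, 34.7, 33.8, 37.3 and 34.5 CPM, and on day 44 the 5 SPF libraries stood at 34.3, 40.9, 24.4, 38.9 and 33.7 CPM. The groups of both days overlapped, with medians of 34.7 and 34.3 CPM. In cohort 1 the 10 libraries of day 2 ran from 28.4 to 41.2 CPM with a median of 32.7, and those of day 44 from 8.80 to 38.8 with a median of 16.8. In cohort 2 the range of day 5 was 24.4 to 35.6 CPM (median 30.9) and that of day 40 was 6.82 to 20.8 (median 16.4), with no overlap. In cohort 3 the range of day 9 was 25.7 to 38.3 CPM (median 29.6) and that of day 44 was 8.14 to 24.1 (median 18.4), again with no overlap. Medians went from 25.7 CPM on day 12 to 16.1 in cohort 4, from 26.3 on day 16 to 18 in cohort 5, from 21.3 on day 19 to 13.7 in cohort 6, from 25.4 on day 26 to 18.5 in cohort 8 and from 20.3 on day 30 to 14.6 in cohort 9, with overlapping groups in each. Cohort 7 went the other way, from a median of 15.5 CPM on day 23 (6.08 to 26.1) to 21.8 on day 44 (6.00 to 28.8), a ratio of 1.41 between medians where the other 8 cohorts had 0.512 to 0.730. Over all 90 conventional libraries of each sampling, the median was 25.8 CPM at the first and 16.5 CPM at the second. Within cohorts 1 to 4 these medians were 30.0 and 16.6 CPM, and within cohorts 6 to 9 they were 20.9 and 15.6 CPM.

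**Figure D1:**
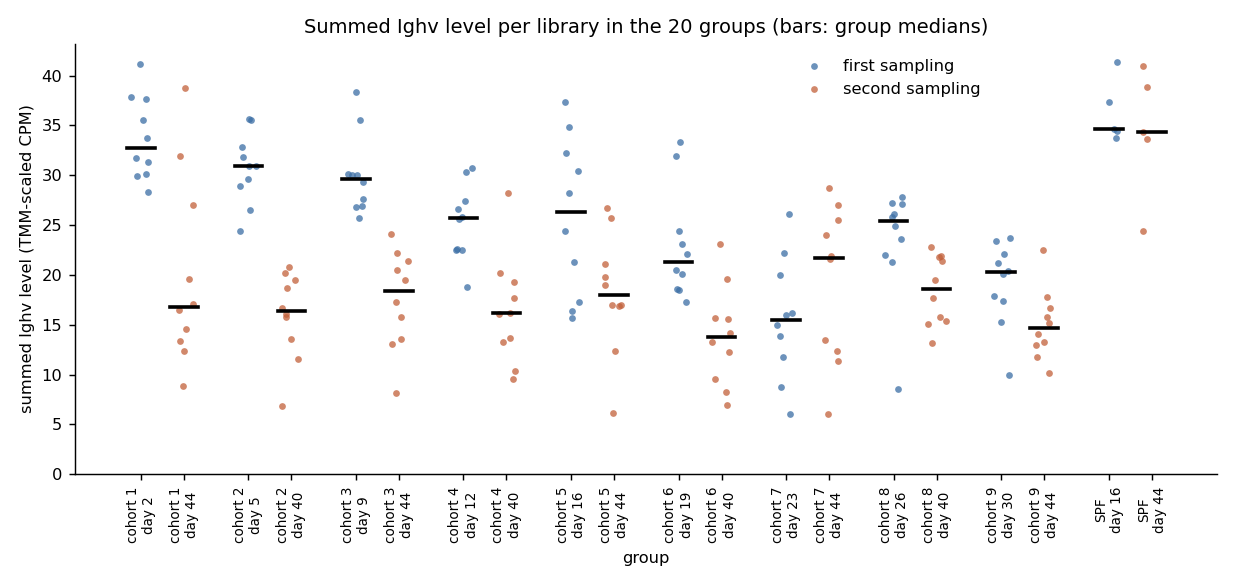
Summed level of all Ighv segments (TMM-scaled CPM, vertical axis) in each library (points) of the 20 groups, with group medians as bars. The SPF medians are 34.7 and 34.3 CPM, the conventional medians of the second sampling run from 13.7 to 21.8 CPM, and cohort 7 is the conventional cohort whose later median is the higher.

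The number of segments detected moved with the sum. Medians were 26.5 in the 10 SPF libraries (18 to 30), 17.5 in the first conventional sampling (0 to 29) and 11 in the second (0 to 28). The 3 libraries with no segment at 0.5 CPM still held 195, 425 and 258 Ighv counts. Ranges of detected segments overlapped between SPF and conventional libraries at both samplings.

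Over the whole span of first samplings most segments were lower at later days, although the later days themselves were not ordered. The summed medians of days 19, 23, 26 and 30 were 21.3, 15.5, 25.4 and 20.3 CPM. Among 90 conventional libraries of the first sampling 35 of the 60 tested segments fell with day and 0 rose (edgeR's quasi-likelihood test, Benjamini-Hochberg adjusted p under 0.05 over 18192 genes), while 25.8% of all genes tested were called lower and 26.5% higher. The median slope of the 60 was −0.30 log2 units per 10 days, against −0.00019 over all genes, and 59 of 60 slopes were negative. All 12 of the most abundant segments fell, with slopes from −0.41 to −0.18. Ighv2-9 had medians of 2.30 CPM on day 2, 1.49 CPM on day 16 and 1.07 CPM on day 30 and a slope of −0.37 ± 0.06 (SE, n = 90, edgeR adjusted p = 1.07e-08). The steepest called slope was that of Ighv8-5, with medians of 0.611 CPM on day 2, 0.271 CPM on day 16 and 0.141 CPM on day 30 and a slope of −0.75 ± 0.11 (edgeR adjusted p = 3.01e-09). Ighv11-2, a segment best known from the B-1 cells of mice, had medians of 0.233 CPM on day 2 (0.0294 to 0.365) and 0.0316 CPM on day 30 (0.00 to 0.301) and a slope of −0.52 ± 0.14 (edgeR adjusted p = 0.00146). These ranges overlapped, and the means of 0.209 and 0.1155 CPM rested on 9.8 and 4.2 counts per library. The other called slopes of largest size were those of Ighv1-71 (−0.59 ± 0.25), Ighv8-11 (−0.49 ± 0.15) and Ighv7-1 (−0.48 ± 0.13). Each first-sampling day is 1 cohort, so day and cohort cannot be told apart. The fits within cohort sets spanned only days 2 to 12 and days 19 to 30, with fewer libraries. Few calls there therefore do not show that a trend was absent. Within cohorts 1 to 4 the number that fell was 5 of 60 (8.33%, median −0.39), near the 8.96% of all genes called lower there. Within cohorts 6 to 9 it was 0, with 1.38% of all genes called lower, and 37 of 60 slopes were negative (median −0.07, 1 at an unadjusted p under 0.05; DESeq2 was not run there). With total counts in place of TMM scaling 46 of 60 fell with day over all cohorts, where 56% of all genes were called lower and 7.94% higher. The slope turned positive within cohorts 6 to 9 for Ighv1-71 (0.35), Ighv7-1 (0.16) and Ighv11-2 (0.05), and within cohorts 1 to 4 for Ighv1-71 (0.18) and Ighv7-1 (0.08), none of them called.

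From the first to the second sampling more segments were called lower, in a fit of more libraries in which more of all genes were called lower as well. With cohort as a covariate over 180 conventional libraries 43 of 60 segments fell and 0 rose, against 30.6% of all genes called lower and 31.4% higher. All 60 estimates were negative, with a median of −0.52 against −0.02 over all genes. Ighv2-9 went from a median of 1.49 CPM (0.236 to 3.27) to 1.02 CPM (0.257 to 3.02), a change of −0.45 ± 0.08 (SE, n = 180, edgeR adjusted p = 7.31e-07). Ighv9-3 went from 1.52 CPM (0.255 to 2.89) to 0.975 CPM (0.00 to 2.41), a change of −0.54 ± 0.11 (edgeR adjusted p = 1.49e-05). Ighv1-26 went from 1.20 to 0.811 CPM, a change of −0.49 ± 0.12 (edgeR adjusted p = 9.34e-05). The ranges of the samplings overlapped for all 3 of these segments, and all 12 of the most abundant segments fell, by −0.71 to −0.37. The called falls of largest size were those of scarcer segments: Ighv1-71 (−0.97 ± 0.35), Ighv2-3 (−0.88 ± 0.25), Ighv9-2 (−0.83 ± 0.19), Ighv1-69 (−0.79 ± 0.29) and Ighv1-52 (−0.78 ± 0.26). Ighv9-2, the near relative of Ighv9-3 printed above, went from a median of 0.294 CPM to 0.147 CPM. Within cohorts 1 to 4 the number that fell was 47 of 60 (median −0.75, with 31.2% of all genes called lower there), and within cohorts 6 to 9 it was 2, Ighv2-3 and Ighv1-64 (median −0.26, with 6.36% called lower). Those 2 of 60 are 3.33%, below that share. With total counts in place of TMM scaling 57 of 60 fell over all cohorts, where 65.6% of all genes were called lower and 9.20% higher. The difference between the cohort sets was not tested.

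Higher dermatitis scores went with lower Ighv levels. At the second sampling the summed level was 14.2 to 38.8 CPM with a median of 25.7 in the 7 libraries with a score of 0, and 6.00 to 24 CPM with a median of 13.7 in the 39 with a score of 3. Medians between them were 16.7 CPM at a score of 0.5 (n = 5), 20.2 at 1 (n = 11) and 17.6 at 2 (n = 27), and the single library with a score of 4 stood at 8.14 CPM. Ranges of neighbouring scores overlapped throughout, and the order was not strict. In each of the 8 cohorts that held both, of which 3 had a single library with a low score, the median of libraries with a score of 2 or more was below that of libraries with a score of 1 or less, from 12.9 against 24.4 CPM in cohort 7 to 15.8 against 16.7 in cohort 2. At the first sampling the median was 29.5 CPM at a score of 0 (n = 58, of which the 30 libraries of days 2 to 9 all scored 0; 25.7 CPM in the 28 of days 12 to 30), 21.2 at 0.5 (n = 9), 21.7 at 1 (n = 12) and 15.9 at 2 (n = 10), and the single library with a score of 3 stood at 17.8 CPM.

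**Figure D2:**
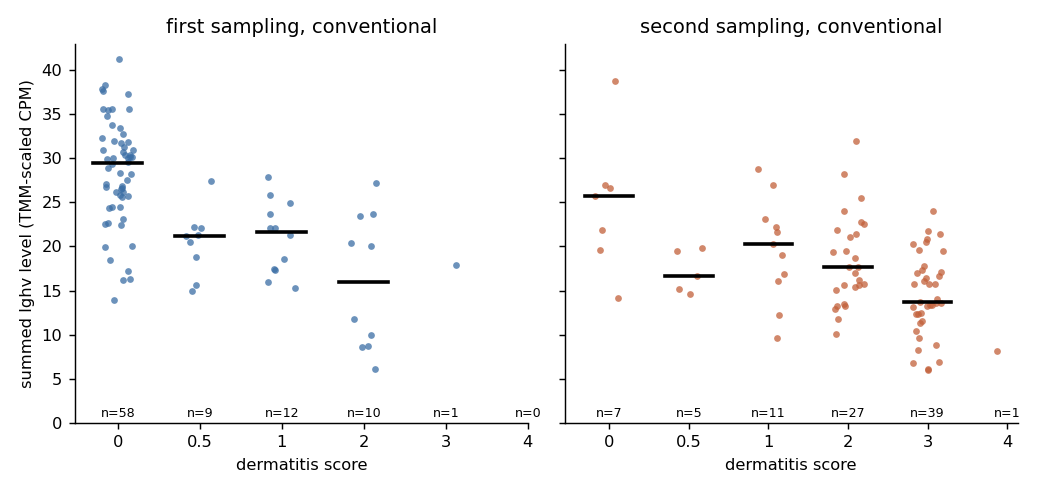
Summed Ighv level (TMM-scaled CPM, vertical axis) per library (points) by dermatitis score (horizontal axis) in conventional mice, first sampling on the left and second on the right, with medians as bars where a score has more than 1 library. Medians go from 29.5 CPM at a score of 0 (25.7 on days 12 to 30 alone) to 15.9 at 2 at the first sampling, and from 25.7 at 0 to 13.7 at 3 at the second, with overlapping ranges.

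Per score point, with cohort as a covariate, 17 of 60 segments fell at the second sampling and 0 rose, against 17.7% of all genes called lower and 18.9% higher. The median slope was −0.27, against −0.02 over all genes. Of the 12 most abundant segments 8 fell. Ighv1-7 had a median of 0.824 CPM at scores of 0 and 0.5 and 0.448 CPM at scores of 3 and 4, with a slope of −0.45 ± 0.12 (SE, n = 90, edgeR adjusted p = 0.00165). Ighv1-69 (−0.75 ± 0.22), Ighv1-39 (−0.75 ± 0.22), Ighv6-7 (−0.60 ± 0.20) and Ighv14-1 (−0.47 ± 0.17) were the others of largest size. These are scarce segments whose slopes rest on few counts. From the low to the high scores, medians went from 0.108 to 0.00 CPM for Ighv1-69 and from 0.0916 to 0.0099 CPM for Ighv1-39. They went from 0.242 to 0.0297 CPM for Ighv6-7 and from 0.182 to 0.0691 CPM for Ighv14-1. Ighv14-3 did not follow, with medians of 0.651 CPM at scores of 0 and 0.5 and 0.570 CPM at 3 and 4 and a slope of 0.01 ± 0.09 (edgeR adjusted p = 0.967). Its share of Ighv counts was 3.02% at the low and 4.62% at the high scores. Within cohorts 1 to 4 the number that fell was 6 of 60 (10%), below the 12.4% of all genes called lower, and within cohorts 6 to 9 it was 0 of 60, with 0.0% of all genes called in either direction (5 segments at an unadjusted p under 0.05; DESeq2 was not run there). DESeq2 called 30 of the 60 in the pooled comparison, with 21.2% of all genes lower, and total counts in place of TMM scaling gave 40 of the 60, with 51.2% of all genes lower and 4.56% higher.

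At the first sampling, days 12 to 30, 7 of 60 segments fell per score point and 0 rose, against 3.85% of all genes called lower and 6.18% higher. The median slope was −0.31, close to that of the second sampling, over 60 libraries. Ighv1-26 had a slope of −0.61 ± 0.16 (SE, n = 60, edgeR adjusted p = 0.00961) and Ighv8-5 one of −0.89 ± 0.25 (edgeR adjusted p = 0.0137). The other called slopes of largest size were those of Ighv8-12 (−0.58 ± 0.19), Ighv1-66 (−0.56 ± 0.19) and Ighv5-4 (−0.56 ± 0.16). With total counts in place of TMM scaling the number that fell was 0 (23 at an unadjusted p under 0.05), with 0.0% of all genes called lower. DESeq2 called 9, with 4.84% of all genes lower.

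Against SPF mice on day 44, conventional mice had 5 lower segments of 60 and 0 higher, against 9.04% of all genes called lower and 10.7% higher. Those 5 are 8.33% of the segments, near the share of all genes. DESeq2 called 10, with 9.55% of all genes lower, and total counts in place of TMM scaling gave 33, with 41.2% of all genes lower and 2.27% higher. The summed level ran from 6.00 to 38.8 CPM with a median of 17 in 50 conventional libraries and from 24.4 to 40.9 with a median of 34.3 in the 5 SPF libraries. The median difference of the 60 segments was −0.91, with a median SE of 0.60, against −0.0019 over all genes. Ighv2-9 stood at 1.89, 3.23, 1.69, 2.80 and 2.32 CPM in the SPF libraries and differed by −1.07 ± 0.24 (SE, n = 50 and 5, edgeR adjusted p = 0.00128). Ighv1-55 stood at 2.16, 1.59, 2.16, 1.53 and 1.52 CPM in them and differed by −1.28 ± 0.36 (edgeR adjusted p = 0.00975). Ighv9-3 stood at 1.83, 2.62, 1.16, 2.38 and 2.29 CPM and differed by −0.97 ± 0.33 (edgeR adjusted p = 0.0293). Ighv4-1, the only Ighv4 entry of type IG_V_gene, differed by −1.17 ± 0.42. Its nearest relative was the pseudogene Ighv4-2 (95.8% identical), and 73.1% of its nonzero values were not whole numbers. Ighv1-71 differed by −2.31 ± 0.81, while Ighv1-62-2, identical to Ighv1-71 over the V exon, differed by −0.05 ± 1.02. Leaving out 1 SPF library at a time left 2 or 3 called segments, 3.33% or 5.0% of the 60. Of all genes 3.90% to 7.63% were called lower in these fits, and the segments were above that share only without library 3. Ighv2-9 and Ighv1-55 stayed called in all 5 such fits. Ighv9-3 was lost without SPF library 2, 4 or 5 (adjusted p from 0.0785 to 0.106), Ighv1-71 without library 1, 2, 3 or 4 (0.0678 to 0.135) and Ighv4-1 without any 1 of the 5 (0.0588 to 0.121), all by edgeR.

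Between cohort 5 and the SPF libraries of day 16, none of the 60 segments passed edgeR's quasi-likelihood test or DESeq2 at an adjusted p under 0.05 (5 at an unadjusted p under 0.05 in each), with 0.154% of all genes called lower and 0.319% higher. The median difference was −0.50. Globin genes took a median of 3.72% of counts in cohort 5 on day 16 and 7.03% on day 44, and 3.78% and 3.40% in SPF mice. The part of this shift in the day changes below was not tested. From day 16 to day 44 the segments of cohort 5 had a median change of −0.53 and 1 of 60 fell, Ighv2-2, from a median of 0.814 CPM (0.546 to 1.33) to 0.412 CPM (0.0486 to 0.71), by −1.08 ± 0.30 (SE, n = 30 in the fit, edgeR adjusted p = 0.0135), with 3.88% of all genes called lower and 8.49% higher, so the 1 of 60 (1.67%) is below the share of all genes. In SPF mice the median change was −0.04 and no segment passed edgeR's test or DESeq2 (0 at an unadjusted p under 0.05 in each), with 0.0% of all genes called in either direction. The difference of these changes passed for no segment by edgeR or DESeq2 (1 and 2 at an unadjusted p under 0.05), with 0.0% of all genes called in either direction, so the fall in cohort 5 is not shown to differ from the SPF course.

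**Figure D3:**
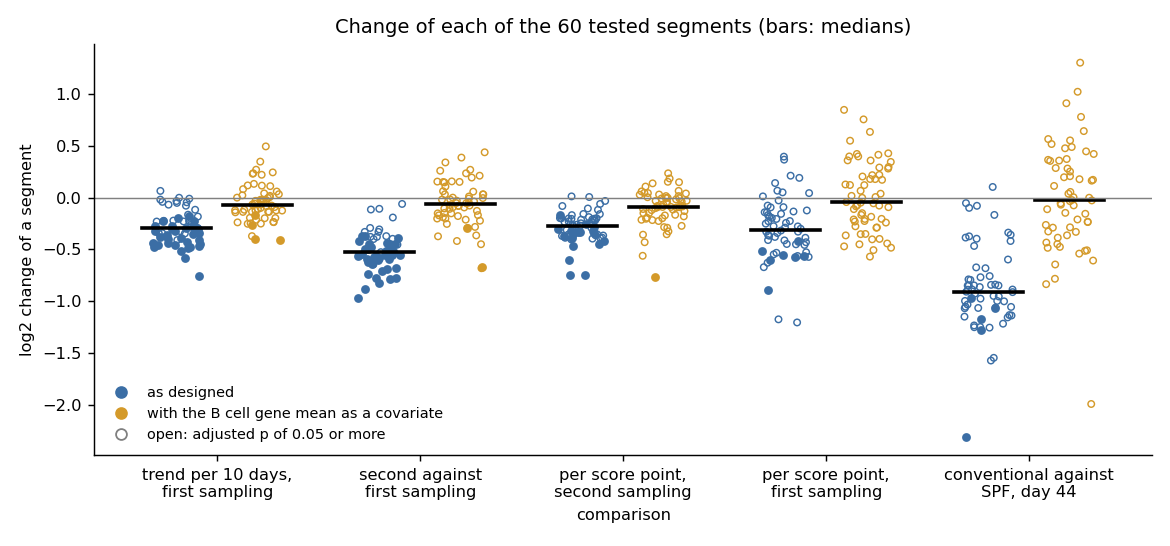
Log2 change (vertical axis) of each of the 60 tested Ighv segments (points) in 5 comparisons (horizontal axis), as designed and with the mean level of B cell genes as a covariate, with medians as bars and filled points at an adjusted p under 0.05. Medians lie between −0.91 and −0.27 as designed and between −0.09 and −0.02 with the covariate.

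In the pooled comparisons the segments moved the same way as most genes of the B cell receptor and B cell identity. Of 14 genes of the B cell receptor and B cell identity 13 fell from the first to the second sampling and 0 rose (median −0.52), 12 fell with the first sampling day (median −0.24), 13 fell per score point at the second sampling (median −0.26) and 13 were lower than in SPF mice on day 44 (median −0.95). Cd79b, which signals for the antigen receptor, had a median of 82.1 CPM at the first and 48.4 CPM at the second sampling, and 131.1 CPM in SPF mice. The summed Ighv level per 100 CPM of Ighm, the constant region of IgM, had similar medians over all libraries of each set. They were 12.6 at the first sampling (6.96 to 19.6), 13 at the second (6.89 to 17.5) and 12.4 in SPF mice (8.24 to 15.5). Cohort medians fell in cohorts 6 (12.9 to 11.1) and 8 (13.6 to 13.1) and rose in the others, as in cohort 2 (10.8 to 13.1). A stable ratio within cohorts is therefore not shown. Per 100 CPM of kappa light chain V segments the summed Ighv level was 63.2, 57.1 and 66.8 (medians). With the mean log2 level of 6 B cell genes, Cd79a, Cd79b, Ms4a1, Cd22 and Pax5 among them, as a covariate, the number of segments that fell was 4 with the first sampling day, 2 from the first to the second sampling, 1 per score point at the second sampling, 0 per score point at the first (3 at an unadjusted p under 0.05) and 0 against SPF mice on day 44 (0 at an unadjusted p under 0.05). Of all genes 17.6%, 15%, 4.29%, 0.00% and 0.176% were called lower in these fits, against 25.8%, 30.6%, 17.7%, 3.85% and 9.04% without the covariate, so calls were fewer over all genes as well. The median changes of the segments were then −0.07, −0.06, −0.09, −0.05 and −0.02. Segments still called were Ighv2-9, Ighv9-2, Ighv8-5 and Ighv8-8 for the day, Ighv9-2 and Ighv1-64 for the samplings, and Ighv1-69 for the score. The summed level of the neutrophil genes S100a8, S100a9, Cxcr2 and Csf3r moved the opposite way, with medians of 566 CPM in SPF mice, 1286 at the first and 4182 at the second sampling, and 4 of 4 rose between the samplings. Markers of other cell types moved too: 3 of 3 erythroid and 3 of 3 platelet genes rose (median changes 0.54 and 0.21), and 3 of 4 T cell and 3 of 3 skin genes fell (−0.13 and −1.22, the summed skin level from 5.84 to 0.834 CPM). The part of these in the fall of Ighv was not tested.

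Constant regions did not all share the fall. Of the 8 heavy chain constant genes 5 rose and 3 fell from the first to the second sampling. Ighm (−0.60 ± 0.07, edgeR adjusted p = 5.51e-14), Ighd (−0.44 ± 0.08) and Igha (−0.47 ± 0.10) fell with the V segments. Ighg1, the constant region of IgG1, rose by 2.20 ± 0.17 (edgeR adjusted p = 1.36e-24), from a median of 0.375 CPM (0.00 to 3.41) to 2.27 CPM (0.322 to 6.19). Ighe, the constant region of IgE, rose by 1.78 ± 0.31 (edgeR adjusted p = 1.97e-07), with medians of 0.00 and 0.0975 CPM. Ighg2c (1.48 ± 0.16), Ighg2b (0.52 ± 0.08) and Ighg3 (0.23 ± 0.09) rose as well. The switched transcripts were small beside Ighm, whose median was 210 CPM at the first and 131.3 CPM at the second sampling.

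Genes of antibody secretion were mixed: of 14 tested, 2 rose and 6 fell between the samplings, where 31.4% of all genes were called higher and 30.6% lower. Jchain, which joins IgA and IgM units, fell by 0.28 ± 0.09 and Mzb1, a chaperone of antibody secretion, by 0.49 ± 0.08, while Xbp1, a factor of the secretory programme that is also made in other blood cells, rose by 0.69 ± 0.07. The summed level of Jchain, Mzb1, Xbp1, Prdm1, Sdc1 and Tnfrsf17 was 39.9 CPM at the first sampling, 48.5 at the second and 28.4 in SPF mice (medians). Of these 6 genes 1 rose and 3 fell between the samplings (median −0.33), and Xbp1 alone went from 19 to 33.5 CPM. Of 5 tested genes of V(D)J recombination and early B cells 4 fell between the samplings and 0 rose. Rag1, which cuts the DNA at V, D and J segments, fell by 1.43 ± 0.26, and Igll1, a surrogate light chain, by 2.31 ± 0.32, both from low medians of 0.515 and 0.0487 CPM.

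The shares of segments and families in the Ighv counts were described without a test. Pooled over libraries, Ighv2-9 held 5.94% of Ighv counts at the first sampling, 6.14% at the second and 6.55% in SPF mice, and it led in all 3. The 10 most used segments held 41.6%, 41.8% and 42.4%, and the effective number of segments, the inverse of the chance that 2 counts fall on the same segment, was 37.1, 36.8 and 35.3. The family Ighv1 held 43.7% ± 2.92 (SD, n = 90) at the first sampling, 43.1% ± 5.86 (SD, n = 90) at the second and 44.1% ± 3.11 (SD, n = 10) in SPF mice. Ighv2 held 11.1% ± 1.90 and 11.7% ± 2.81 at the samplings and 11.7% ± 1.85 in SPF mice. Ighv6 held 2.44% ± 0.982 and 2.43% ± 1.69 at the samplings and 1.67% ± 0.546 in SPF mice. The largest shifts of a single pooled share between the samplings were those of Ighv1-64, from 4.18% to 3.67%, and Ighv2-6-8, from 0.963% to 1.38%. By score at the second sampling the pooled effective number was 37.7 in the 12 libraries with a score of 0.5 or less and 35.8 in the 40 with a score of 3 or 4.

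**Figure D4:**
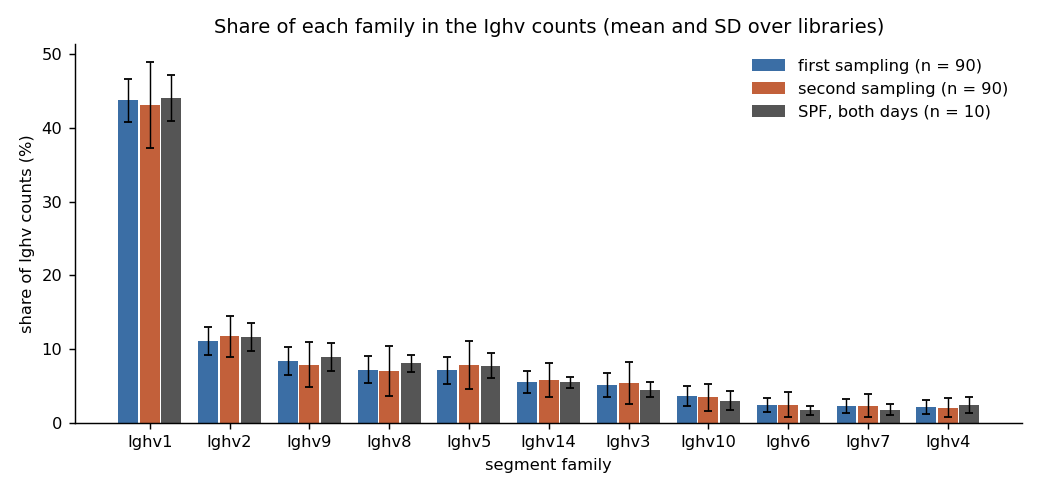
Share of each family in the Ighv counts (percent, vertical axis) for the 11 families with at least 1% of counts (horizontal axis), as mean bars with SD over libraries for the first sampling, the second sampling and SPF mice. Ighv1 holds 43.7%, 43.1% and 44.1%, and Ighv6 holds 2.44%, 2.43% and 1.67%.

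The share of the most used segment had a median of 6.91% at the first sampling (4.95% to 18.1%), 8.19% at the second (5.27% to 20%) and 7.31% in SPF mice (6.05% to 8.85%). It was 6.71% in libraries with a score of 0 and 8.47% in those with a score of 3 at the second sampling. The share was high where Ighv counts were few: in the 80 libraries with at least 1000 Ighv counts it ran from 4.95% to 10.4% with a median of 6.69%, and among these alone the medians of the samplings were 6.65% and 6.71%. Of all 190 libraries 25 had a share above 10%.

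**Figure D5:**
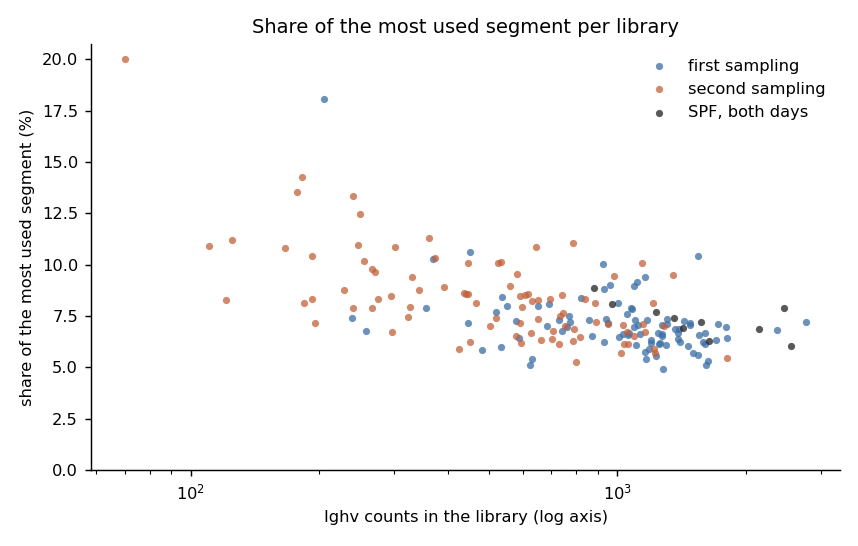
Share of the most used segment (percent, vertical axis) against the number of Ighv counts (log axis) in each library (points) by sampling and housing. Libraries with at least 1000 Ighv counts lie between 4.95% and 10.4%, and the highest shares, 20% and 18.1%, belong to libraries with 70 and 205 Ighv counts.

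The 5 highest shares all came from libraries with 70 to 240 Ighv counts, and 4 of the 5 were led by a segment other than Ighv2-9 and Ighv9-3. Intervals here are exact Clopper-Pearson 95% intervals and cover counting error only, since reads without molecular identifiers are not independent molecules. In cohort 7 on day 44, library 6 (score 3) had 14 of 70 Ighv counts on Ighv8-12, 20% (11.4% to 31.3%), where the other libraries of its group had 0.00% to 3.59%. In cohort 7 on day 23, library 6 (score 2) had 37 of 205 on Ighv1-55, 18.1% (13% to 24%), where the others had 1.08% to 10.6%. In cohort 6 on day 40, library 1 (score 3) had 26 counts on Ighv5-17, 14.3% of its Ighv counts (9.55% to 20.2%), where the others had 0.00% to 6.20%. In cohort 3 on day 44, library 5 (score 4) had 24 counts on Ighv14-3, 13.6% of its Ighv counts (8.89% to 19.5%), where the others had 1.79% to 6.27%. In cohort 5 on day 44, library 3 (score 3) had 32 of 240 on Ighv2-9, 13.3% (9.30% to 18.3%), where the others had 4.40% to 9.02%. In the first 3 of these the CPM of the leading segment, 1.20, 1.57 and 0.989, also stood above that of every other library of the group. In the other 2, with 1.10 and 0.815 CPM, it lay within the range of the other libraries of the group. Each library was the highest of many, so these intervals are no test.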

How the data were processed

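RNA was isolated from whole blood with the NucleoSpin RNA Blood kit and made into stranded total-RNA libraries depleted of ribosomal and globin RNA, per the labels' protocols. The authors deposited expected counts per gene and TPM per gene, made with DRAGEN on GRCm39 per the submitters' processing notes. Not given in the sources used here are its version, the annotation and any filter on reads. Of all count values 2.86% were not whole. The deposited TPM values served for levels per length and as alternatives. Each of the 190 columns carries the library name of 1 sample, and 0 columns were left unused.

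Expected counts were rounded for tests. Genes were filtered with filterByExpr (minimum count 10, minimum total 15; 18192 genes kept) and scaled by TMM, and CPM is the unrounded expected count scaled to the total times its TMM factor. Two-sided quasi-likelihood tests (edgeR 4.0.16, R 4.3.3, robust fit) were adjusted by Benjamini-Hochberg over all genes kept; an SE is the size of the log2 change over the root of F. The test was checked on simulated counts. Linear terms were day (per 10 days) or score, with cohort as a covariate where the text says so. Alternatives were DESeq2 1.42.0, no filter, no TMM, TMM without abundant genes, a B cell covariate, cohort sets, the replicate number as a block and leaving out SPF libraries. Sums, numbers detected and shares over the segments are described without a test. Named segments are the 12 of highest median CPM, up to 5 called rises and falls of largest size per comparison, and the leaders of the 5 highest shares; Ighv14-3 and the segments called with the covariate or within cohort sets were singled out after their values were seen. The segments and gene lists were chosen with earlier results of these data known. V-exon sequences came from GENCODE M21 (GRCm38), matched by transcript identifier, and identities from global alignment (Biopython). Promoters of the segments were not analysed here. Some gene-level results are not reported here.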

Additional observations from a re-analysis of the deposited data

Results flagged for a closer look

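Dixon's test at the 95% level was run in the 20 groups for the summed Ighv level, the number of segments detected and the share of the most used segment, 60 group tests in all, of which chance flags about 1 in 20. In cohort 8 on day 26, library 1 (score 2) had a summed level of 8.57 CPM, far below the next lowest of 21.3 CPM, and 4 segments detected where the next lowest had 14. Its Cd79b level, 25.6 CPM, was also the lowest of its group, and its S100a8 level, 3586 CPM, the highest. Shares of the most used segment far above the rest of their group were 18.1% in cohort 7 on day 23, library 6 (next highest 10.6%), 20% in cohort 7 on day 44, library 6 (next highest 10.3%), 10.0% in cohort 8 on day 26, library 9 (next highest 7.87%), and 12.4% in cohort 8 on day 40, library 1 (next highest 8.59%). The Ighv counts behind the first pair were 205 and 70. Both carry the number 6 of cohort 7, but their leading segments differed, Ighv1-55 on day 23 and Ighv8-12 on day 44.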

How the results depend on the processing

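Counts of segments called lower changed with several choices. With the B cell covariate they were 4 for the first sampling day (35 without it), 2 for the second against the first sampling (43), 1 and 0 for the score slopes of the second and first sampling (17 and 7), 0 against SPF on day 44 (5) and 0 for cohort 5 (1; 1.52% of all genes lower), with 3, 0 and 4 at an unadjusted p under 0.05 where edgeR called 0. Within cohorts 1 to 4 they were 5 for the day and 6 for the second-sampling score (8.96% and 12.4% of all genes lower). Within cohorts 6 to 9 they were 0, 0 and, for the samplings, 2 (1.38%, 0.00% and 6.36%). Fewer libraries entered these fits, their day slopes spanned fewer days, and the samplings of cohorts 6 to 9 lay closer together. DESeq2 called 30 for the second-sampling score, 10 against SPF on day 44 and 3 for cohort 5 (21.2%, 9.55% and 5.90% of all genes lower). Without TMM factors 40 were called for the second-sampling score, 33 against SPF on day 44 and 0 for the first-sampling score (51.2%, 41.2% and 0.00% of all genes lower); this moved the median of all genes by up to −0.72 (day 44 against SPF), and the causes of these changes were not tested. Without the filter more segments were tested, and 4 were called for the first-sampling score and 2 for cohort 5. These are 3.96% and 2.06% of the segments tested there, with 2.26% and 1.92% of all genes called lower. The cohort 5 share is thus near that of all genes. From 1 to 3 scarce segments were called higher without the filter in 4 comparisons (Ighv11-1 among them), none of which passed the filter. Leaving out 1 SPF library gave 2 to 3 on day 44 (3.90% to 7.63% of all genes lower). No alternative with the filter in place called a segment higher.

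With the replicate block, the counts were 36, 49, 11, 1 and 10 for the day, the samplings, the second-sampling score, the first-sampling score and SPF on day 44. Of all genes 26.2%, 31.9%, 14.5%, 0.61% and 7.2% were called lower in these fits. The 11 of 60 for the second-sampling score are 18.3%, not far above that share. The numbers were not shown to pair the libraries: correlations of the deviations of the 95 same-numbered pairs ran from −0.30 to 0.57 with a median of 0.04, 35 were over 0.1, and 13 libraries correlated best with their own number. The most used segment was the same in 18 of these 95 pairs (18.9%) and in 197 of 830 differently numbered pairs of the same cohorts (23.7%).

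Of 214 values of named segments under these alternatives 66 lost the call and 6 reversed, and the rest kept both direction and call. Reversed were the day slope of Ighv1-71 within cohorts 1 to 4 (0.18) and 6 to 9 (0.35), of Ighv7-1 there (0.081 and 0.16), of Ighv11-2 within cohorts 6 to 9 (0.049), and the change of Ighv1-52 between samplings with the B cell covariate (0.15). The summed level was 49.3 and 24.7 CPM at the first and second sampling (medians) without abundant genes in the totals, and 63.1 and 32.7 as the authors' TPM. Medians of segments detected were 66 and 56.5 at a count of 1, 35 and 22 at a count of 10, 49.5 and 40 at 0.1 CPM, and 38 and 24 at a TPM of 0.5, lower at the second sampling by each limit. Depth limits single segments: 11 libraries had fewer than 200 Ighv counts over all segments. The effective number of segments per library, added after the data were seen, had medians of 33.5 and 31.2.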
